A study of Drosophila melanogaster with 31 samples.

Results

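The proteasome subunit genes of Drosophila were followed through the transcriptomes of single clones from the larval eye imaginal disc, the epithelium that forms the adult eye. Members were chosen by name, as every gene of the deposited table whose FlyBase symbol begins with Prosalpha, Prosbeta, Rpn or Rpt and then a number. This gave 48 genes of the 17559 in the table. Of these, 14 were canonical subunits of the core particle and 18 were canonical subunits of the regulatory particle. The other 16 were paralogs with symbols that end in R or T, 11 of the core and 5 of the regulatory particle, and such paralogs are known in Drosophila mainly from the male germline.

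The proteasome is the protease that degrades proteins tagged with ubiquitin. Its core particle is a barrel in which rings of beta subunits, some of them proteolytic, lie between rings of alpha subunits that gate the entry. The regulatory particle caps the barrel, receives the ubiquitinated substrate, removes the ubiquitin, and unfolds the chain with a ring of Rpt ATPases. In growing tissue the mTORC1 pathway raises protein synthesis, and Tsc1 is an inhibitor of that pathway. FoxO is a transcription factor that insulin signalling holds inactive and that acts when nutrients are short.

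RNA was measured in 31 libraries, each from 1 clone of about 50 cells cut by laser from the region anterior to the morphogenetic furrow of a wandering larva in its last instar. The clones were wild-type (wt), homozygous for the mutant allele Tsc1[Q87X] (Tsc1), wild-type with an RNAi transgene against foxo (foxoRi), or mutant with the same transgene (Tsc1 foxoRi). All were made with the MARCM technique, in which recombination at mitosis gives homozygous clones with Gal4 activity, here from the tub promoter, which is active in all cells of the clone. Larvae were raised on normal food and dissected at 4.5 days after egg laying, or under nutrient restriction (NR), on food with less yeast, and dissected at 6.5 days, so food and age cannot be told apart. The temperature-sensitive inhibitor Gal80ts was switched off by a shift to 30°C for the last 12 hr in the foxoRi and Tsc1 foxoRi clones, whereas wt and Tsc1 clones stayed at 25°C. Knockdown and temperature therefore cannot be told apart either, and every comparison with knockdown below is one of 30°C with 25°C. Per the study the clones at 25°C came from siblings of the shifted larvae. Whether these siblings also carried the transgene was not given in the labels. The larvae were not sorted into males and females. The tests used 29 libraries, with 4 clones per group except for 3 in wt on normal food and 2 in foxoRi under NR.

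Each library was 1 clone, so p-values measure the spread between single clones. Total counts ranged from 2597196 to 13316136 over the 31 libraries. The libraries left out were replicate 4 of the wt group on normal food and replicate 3 of the foxoRi group under NR, which had the fewest genes with a count in their groups (6846 and 4977). In the replicate of foxoRi under NR, 6 of the 32 canonical proteasome genes had no read and the highest had 2424 reads, whereas none of the 32 was at 0 in any of the 29 other libraries, where the lowest count was 18. The foxo transcript did not fall with the knockdown, with a log2 fold change of 0.06 (SE 0.15) as the mean of the 4 knockdown comparisons. The study also reported no reduction of the transcript. From antibody staining of nuclear FoxO in Tsc1 mutant cells, it judged the knockdown after the temperature shift adequate. The counts used here measure RNA only, so loss of the FoxO protein was not tested. Eye progenitor markers summed to 982 to 2665 CPM (normalised read counts, scaled by the library size after TMM normalization) in the 29 libraries. Markers of fat body (5 of 5 listed genes in the table) were low in most clones and highest in replicate 3 of Tsc1 foxoRi under NR (2864 CPM). Photoreceptor markers had a median of 120.6 CPM and were highest in replicate 2 of foxoRi on normal food (1604 CPM). Their highest sums were 1163 CPM in Tsc1 on normal food and 1045 CPM in Tsc1 under NR. They were 939.9 CPM in wt and 916 CPM in foxoRi under NR, and 156.2 to 361.5 CPM in the other groups.

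All 32 canonical genes were expressed in these clones at high and similar levels. Mean CPM ranged from 34.3 for Rpn12 to 94.0 for Rpn2, a scaffold of the regulatory particle, and placed the 32 genes between the percentiles 82.8 and 93.4 of the tested genes. Per kilobase of exon, the scale on which genes can be compared, levels differed by 2.50-fold between the lowest and the highest gene. Core genes had a median of 49.7 CPM per kb and regulatory genes a median of 34.4 CPM per kb. The highest core genes per kb were Prosalpha6 (64.7) and Prosalpha4 (62.5), both of the alpha ring, and the lowest were Prosbeta7 (31.8) and Prosbeta5 (40.5), the latter the chymotrypsin-like protease. In the regulatory particle the ATPase genes Rpt1 (44.0) and Rpt3 (42.0) were highest, and the lid gene Rpn3 (25.9) and the ubiquitin receptor gene Rpn13 (27.2) were lowest. Rpt1 lies inside the gene CG17985 on the same strand, so its reads cannot be told apart from reads of that gene. Prosalpha1 (55.3) could not be told apart from its paralog Prosalpha1R (56.2), so its rank and its part in medians and sums are uncertain. Medians by part were 52.3 CPM per kb for the alpha ring, 44.1 for the beta ring, 35.4 for the Rpt ATPases and 33.2 for the Rpn subunits.

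**Figure D1:**
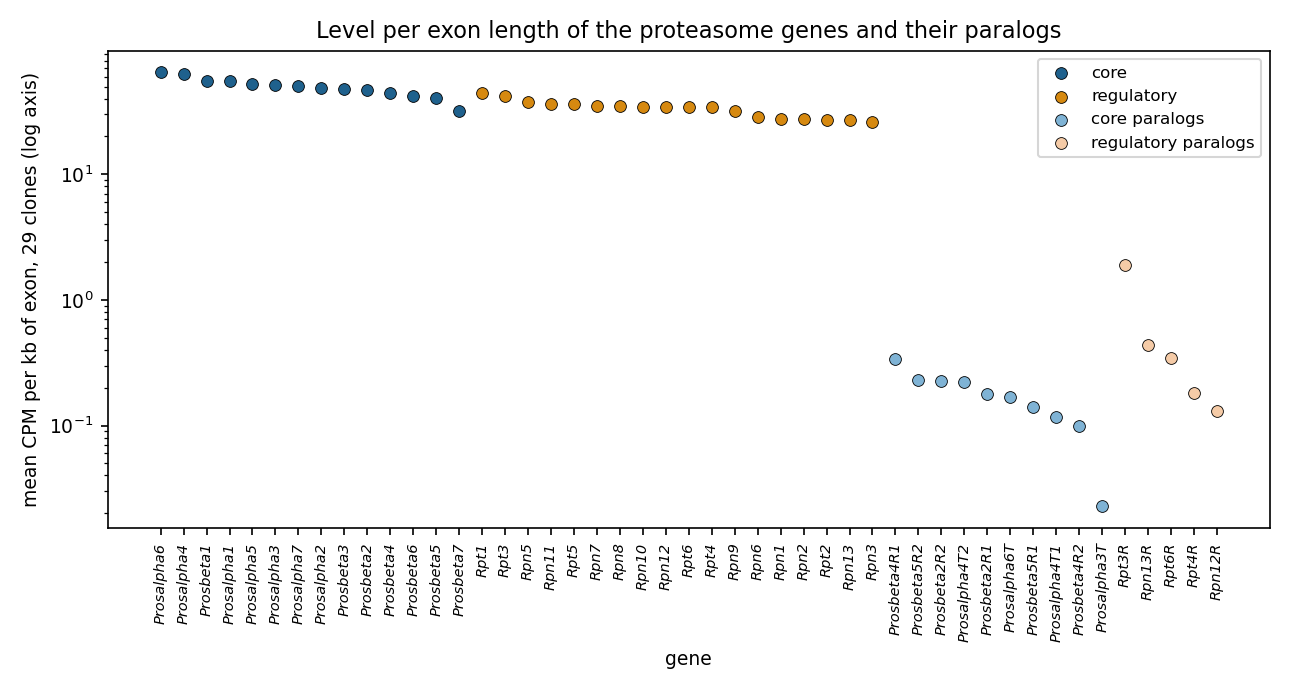
Mean level per kilobase of exon (CPM per kb, log axis) of the canonical proteasome genes and of 15 paralogs over 29 clones, ordered by level within each class. Canonical genes lie between 25.9 and 64.7 CPM per kb, and every paralog shown lies at 1.88 CPM per kb or less, with Rpt3R the highest.

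The plot of levels by gene shows this narrow band of canonical genes and the gap to the paralogs. The median SD between clones of a group was 0.29 on the log2 scale for the canonical genes, at a median level of 49.3 CPM, and 0.44 for all tested genes, at a median level of 4.38 CPM, so these spreads were not compared at equal level. Rpn9, a lid gene, had the lowest spread (0.21). Rpn12, another lid gene, had the highest (0.68), and this came with 1 library, replicate 3 of Tsc1 foxoRi under NR, which had 18 reads and 1.93 CPM on the gene. The ratio of summed regulatory to summed core CPM ranged from 1.16 to 1.82 over the 29 clones, with a median of 1.47.

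Summed over the 14 core genes, wt clones on normal food had 504, 615 and 787 CPM. Tsc1 clones on normal food ranged from 744 to 1084 CPM (median 881), foxoRi clones from 486 to 637 CPM (median 546), and Tsc1 foxoRi clones from 712 to 812 CPM (median 755). The Tsc1 clones overlapped the wt clones in 1 clone of each group, and Tsc1 foxoRi clones all lay above the foxoRi clones. Under NR, core sums were 571 to 720 CPM in wt (median 611), 756 to 953 CPM in Tsc1 (median 819), 410 and 481 CPM in foxoRi, and 472 to 757 CPM in Tsc1 foxoRi (median 652). Here every Tsc1 clone lay above every wt clone, and the lowest Tsc1 foxoRi clone lay below the higher foxoRi clone. The 2 libraries left out gave core sums, scaled with all 31 libraries, of 382 CPM in wt on normal food and 1194 CPM in foxoRi under NR, the latter above all 29 others.

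Summed over the 18 regulatory genes, wt clones on normal food had 794, 910 and 964 CPM and Tsc1 clones 1155 to 1551 CPM (median 1291). The foxoRi clones on normal food had 804 to 869 CPM (median 821) and Tsc1 foxoRi clones 1085 to 1134 CPM (median 1111). On normal food the Tsc1 groups did not overlap the groups without Tsc1 mutation. Under NR the sums were 799 to 968 CPM in wt (median 928), 997 to 1365 CPM in Tsc1 (median 1142), 748 and 833 CPM in foxoRi, and 827 to 1154 CPM in Tsc1 foxoRi (median 932). The Tsc1 clones again lay above all wt clones, and the foxoRi and Tsc1 foxoRi clones overlapped.

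**Figure D2:**
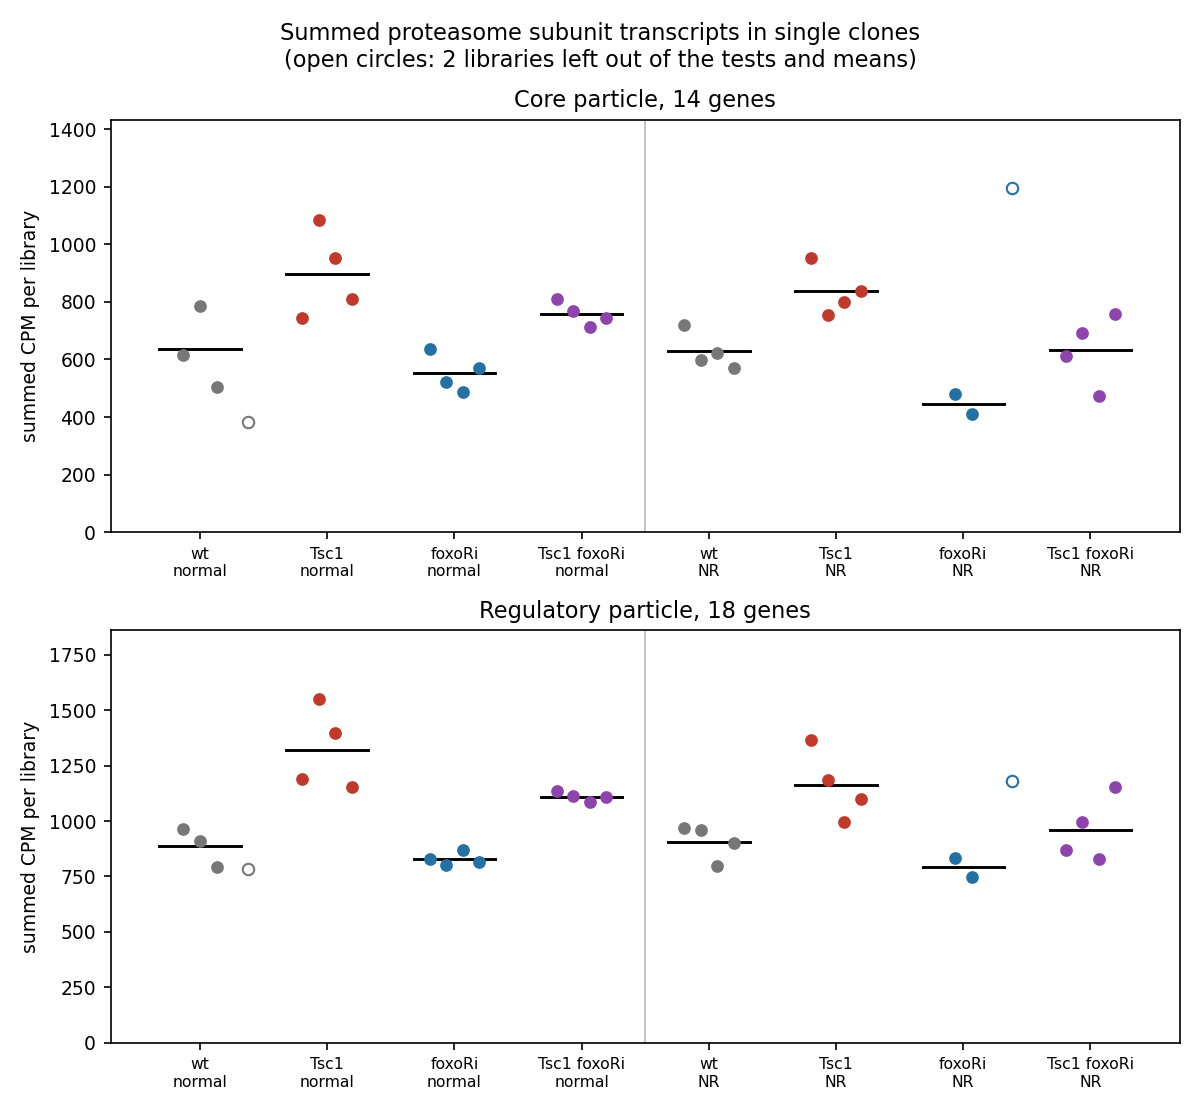
Summed CPM of the core genes (top) and the regulatory genes (bottom) in each clone by group. Filled points are clones, lines are group means over the filled points, and open circles are the 2 libraries left out of tests and means, scaled with all 31 libraries. Tsc1 clones (red) have the highest means in both panels on both foods, at core medians of 881 CPM on normal food and 819 CPM under NR.

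The first question was how loss of Tsc1 changes these genes. In the plot of summed levels the Tsc1 groups without knockdown have the highest means on both foods. Under NR the core means of Tsc1 foxoRi and wt clones were near each other (633 and 628 CPM). A higher level with the mutation was also seen gene by gene. The mean of the 4 comparisons of Tsc1 mutant with non-mutant clones (with and without knockdown, on both foods) was above 0 for 32 of 32 canonical genes, against 61.4% of all 13524 genes tested. A gene is said to have risen or fallen where the adjusted p of edgeR's quasi-likelihood test (Benjamini-Hochberg over all tested genes) was under 0.2. It is said to be called where the absolute log2 fold change was also over 0.8. The study used both thresholds together, and the rule with adjusted p alone was added after seeing the data. By the first rule 28 of the 32 rose, 14 of 14 core and 14 of 18 regulatory genes, against 10.1% of all tested genes. By the second, 1 gene was called, against 5.65% of all tested genes. The canonical genes had a median level of 49.3 CPM and all tested genes one of 4.38 CPM. These shares were therefore not compared at equal level. Median log2 fold changes were 0.45 for the core, 0.39 for the regulatory particle and 0.15 for all tested genes. In bulk samples more RNA per cell and more cells of a type cannot be told apart.

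Prosalpha5, an alpha ring gene at 2R:17412767-17413769 on the plus strand (FBgn0016697, BDGP6.54), was the gene called. On normal food its level was 43.7, 40.1 and 28.6 CPM in wt clones and 58.2, 80.1, 73.2 and 73.7 CPM in Tsc1 clones. With knockdown on normal food it was 32.0, 21.8, 35.4 and 39.1 CPM in foxoRi clones and 57.5, 61.1, 52.1 and 67.8 CPM in Tsc1 foxoRi clones. In both pairs of groups every mutant clone was above every clone without the mutation. Under NR it was 54.8, 42.0, 45.6 and 30.6 CPM in wt clones and 71.2, 73.2, 59.6 and 60.0 CPM in Tsc1 clones, which did not overlap either. In foxoRi clones under NR it was 30.9 and 18.1 CPM, and in Tsc1 foxoRi clones 63.7, 42.0, 25.7 and 51.6 CPM, where 1 mutant clone lay between the foxoRi clones. As the mean of the 4 comparisons it was 1.78-fold higher with the mutation (log2 fold change 0.83, SE 0.14, adjusted p = 0.000356). With all 31 libraries in the fit the value was 0.44 (adjusted p = 0.334).

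Rpt4, an ATPase gene at X:6289470-6291245 on the minus strand, shares 93 bases with wuho on the other strand. On normal food it was at 50.7, 31.3 and 35.6 CPM in wt clones and at 68.3, 93.8, 85.5 and 74.0 CPM in Tsc1 clones. In foxoRi clones it was at 31.7, 31.7, 38.4 and 25.9 CPM and in Tsc1 foxoRi clones at 49.5, 59.6, 47.9 and 55.9 CPM. The mutant clones were higher than all others in both pairs. Under NR, wt clones had 44.8, 40.6, 32.0 and 44.3 CPM and Tsc1 clones 79.7, 69.5, 60.9 and 61.7 CPM, again without overlap. The foxoRi clones under NR had 28.8 and 38.2 CPM and the Tsc1 foxoRi clones 37.5, 50.0, 19.6 and 60.7 CPM, which overlapped. The mean of the 4 comparisons was a log2 fold change of 0.71 (SE 0.14, adjusted p = 0.00151).

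Next among the genes that rose as the mean of 4 were Prosbeta7 of the beta ring (0.68, SE 0.15) and the lid gene Rpn5 (0.64, SE 0.12). Rpn11, which encodes the deubiquitinase of the lid, rose by 0.57 and the ubiquitin receptor gene Rpn10 by 0.54. Prosbeta3 rose by 0.55, Rpn7 by 0.53, Rpt6 by 0.49 and Rpn9 by 0.43. The 4 regulatory genes that did not pass were Rpn1 (0.30, adjusted p = 0.238), Rpt2 (0.25, adjusted p = 0.257), Rpt3 (0.24, adjusted p = 0.305) and Rpn12 (0.36, adjusted p = 0.432). The fold change was above 0 in each of the 4 comparisons for 30 of the 32 genes, 14 core and 16 regulatory, against 13.1% of all tested genes, and these 4 comparisons share no library. Rpt3 and Rpt5 were the 2 exceptions. Of the 32 genes, 18 had their highest level in the same clone, replicate 2 of Tsc1 on normal food. The genes are thus not independent of each other, and their counts are not counts of separate results.

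**Figure D3:**
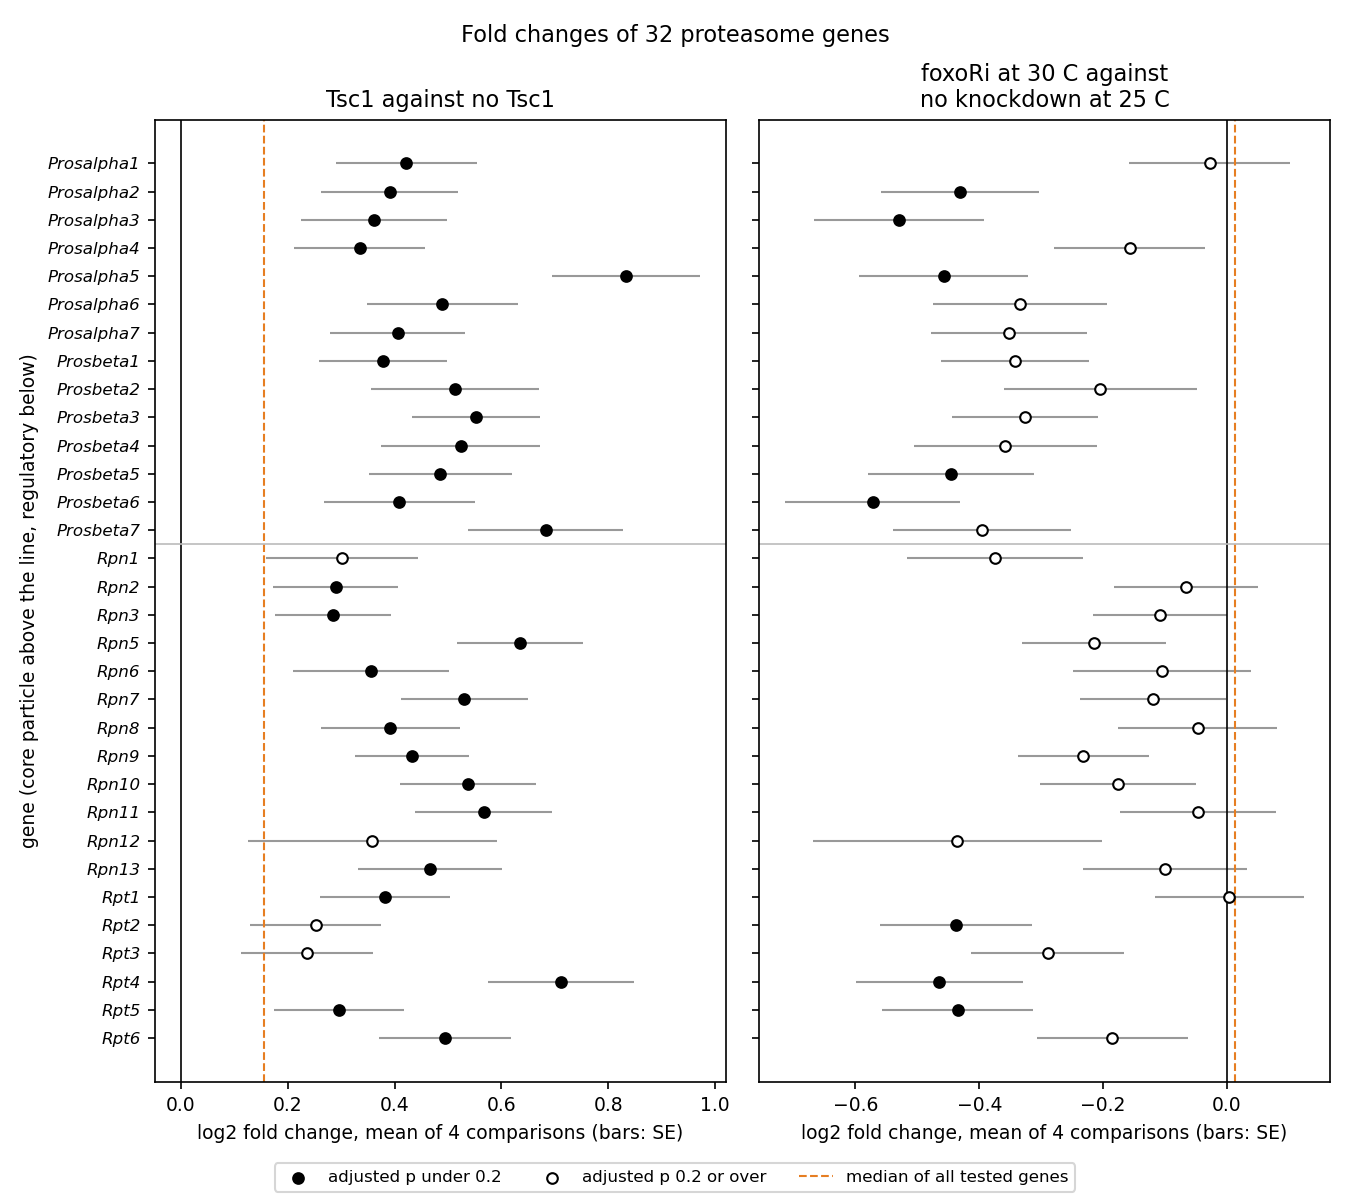
Log2 fold change of each canonical gene as the mean of 4 comparisons, for Tsc1 mutant against non-mutant clones (left) and for foxoRi at 30°C against no knockdown at 25°C (right), with SE bars. Filled points have an adjusted p under 0.2 and the dashed line is the median of all tested genes. On the left all 32 points lie above the dashed line at 0.15, and on the right 31 lie below 0.

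The 2 libraries left out bear on this count. With all 31 libraries, 8 of the 32 genes rose, and 29 of 32 remained above 0. Without either of the 2 remaining foxoRi clones under NR the number that rose was 14 (without replicate 2) or 19 (without replicate 1).

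The 4 comparisons gave unequal numbers of called genes. The difference between the 2 comparisons under NR is the same contrast as the difference of the knockdown effect between genotypes, given with Rpt5 below, and the other differences were not tested. Tsc1 against wt on normal food gave 4 called genes of 32, against 0.333% of all tested genes, and 17 genes whose groups did not overlap (5 core, 12 regulatory), against 3.35%. The medians were 0.46 for the core and 0.65 for the regulatory particle, with −0.09 for all tested genes. Photoreceptor markers summed to 58.5 to 1163 CPM in these Tsc1 clones and to 58.1 to 213 CPM in the wt clones. Their part in the result was not tested. Rpt4 was called at 2.05-fold (log2 fold change 1.04, SE 0.27, adjusted p = 0.128), with the values given above.

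Prosbeta2, the trypsin-like protease gene (3L:14999951-15001319, plus strand), was the gene with the largest fold change on normal food. It was at 40.6, 36.4 and 17.4 CPM in wt clones and at 60.0, 91.5, 64.1 and 69.1 CPM in Tsc1 clones. All Tsc1 clones were higher, and 1 wt clone stood low (log2 fold change 1.18, SE 0.32, adjusted p = 0.135). In foxoRi clones on normal food it was at 63.5, 50.3, 41.8 and 39.8 CPM and in Tsc1 foxoRi clones at 62.8, 48.5, 65.0 and 60.9 CPM, which overlapped. Rpn7, a lid gene (3R:22460662-22462054, minus strand), was at 31.6, 50.9 and 31.7 CPM in wt clones and at 54.7, 89.2, 70.1 and 58.5 CPM in Tsc1 clones. These groups did not overlap (log2 fold change 0.84, SE 0.24, adjusted p = 0.162). Prosalpha5 was the fourth gene called, at 0.93 (SE 0.28, adjusted p = 0.185). With all 31 libraries none of the 4 was called, and none was called without replicate 3 of wt or without replicate 2 of Tsc1.

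Tsc1 against wt under NR gave no called canonical gene in edgeR, against 0.473% of all tested genes, nor in DESeq2. By unadjusted p under 0.05, 9 of the 32 were higher, against 5.81% of all tested genes. In 9 genes the Tsc1 clones lay above all wt clones, against 4.16%. The 9 were Prosalpha1, Prosalpha4, Prosalpha5, Prosbeta3, Rpn1, Rpn3, Rpn7, Rpn10 and Rpt4. Rpt4 had the smallest p (log2 fold change 0.75, SE 0.25, adjusted p = 0.338). The medians were 0.39 and 0.37, with 0.20 for all tested genes. The median of all tested genes was 0.008 with only the groups compared (8537 genes). Tsc1 clones under NR had more genes with a count (12265 to 15173) than wt clones under NR (10291 to 13916), and their fat body markers summed to 3.55 to 804 CPM against 1.54 to 43.8 CPM. Eye progenitor markers summed to 1634 to 1934 CPM in these Tsc1 clones and to 2039 to 2665 CPM in the wt clones, without overlap, and photoreceptor markers had medians of 67.1 CPM and 465 CPM in overlapping groups. The part of these differences in the result was not tested.

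Between Tsc1 foxoRi and foxoRi clones on normal food, 1 gene was called, Prosalpha5 (0.89, SE 0.25, adjusted p = 0.183), against 0.525% of all tested genes. Its call was lost with all 31 libraries and without all but 1 of the 8 single clones of these groups in turn, at values of 0.75 to 0.95. Prosbeta3 rose without reaching the fold threshold (0.77, SE 0.22, adjusted p = 0.184), which made 2 genes by adjusted p, against 0.569%. Its level was 28.8, 34.8, 27.7 and 26.4 CPM in foxoRi clones and 57.4, 52.1, 41.6 and 50.1 CPM in Tsc1 foxoRi clones, with no overlap. Groups of 9 genes did not overlap, against 3.24%. The medians were 0.43 for the core, 0.46 for the regulatory particle and −0.02 for all tested genes. Photoreceptor markers had a median of 162 CPM in Tsc1 foxoRi clones and 393 CPM in foxoRi clones on normal food, and their part in the result was not tested.

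Between Tsc1 foxoRi and foxoRi clones under NR, no canonical gene was called in edgeR, against 0.636% of all tested genes. In DESeq2 4 proteasome genes, paralogs included, were called, against 9.24%. In edgeR 6 were higher at an unadjusted p under 0.05, against 8.7%, and 11 did not overlap, against 10.1%. Prosbeta7 had the smallest p, with 20.5 and 16.5 CPM in foxoRi clones and 28.0, 59.6, 24.0 and 47.4 CPM in Tsc1 foxoRi clones. These groups did not overlap, yet the log2 fold change of 1.10 (SE 0.34) missed the threshold (adjusted p = 0.212). The medians of 0.45 for the core and 0.30 for the regulatory particle were at or below that of all tested genes (0.47) in this fit. The median of all tested genes was 0.23 with only the groups compared (10206 genes) and 0.68 with all 31 libraries (12024 genes). The order of these medians is therefore given for this fit only. Rpt5 (−0.12) and Rpt3 (−0.29) were the genes below 0. Photoreceptor markers summed to 46.7 to 156 CPM in Tsc1 foxoRi clones and to 458 and 916 CPM in foxoRi clones under NR, without overlap, and their part in these values was not tested.

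The second question was how the knockdown, with its shift to 30°C, changes the proteasome genes. As the mean of the 4 knockdown comparisons, 31 of the 32 genes were below 0, against 48.9% of all tested genes. By adjusted p, 8 fell, 5 core and 3 regulatory, against 1.06% of all tested genes, again not compared at equal level. The median log2 fold change was −0.36 in the core and −0.18 in the regulatory particle, with 0.01 for all tested genes. Within the regulatory particle it was −0.36 for the Rpt ATPases and −0.11 for the Rpn subunits. None was called in edgeR (against 0.34% of all tested genes) or DESeq2, and 17 were lower at an unadjusted p under 0.05 in edgeR, against 5.32%.

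Prosbeta6, a beta ring gene (3L:16609400-16610418, minus strand), had the smallest p. On normal food it was at 39.2, 68.3 and 33.1 CPM in wt clones, at 32.2, 32.3, 35.8 and 23.1 CPM in foxoRi clones, at 38.3, 65.6, 62.5 and 43.1 CPM in Tsc1 clones and at 62.8, 37.5, 29.5 and 36.4 CPM in Tsc1 foxoRi clones. The clones with and without knockdown overlapped in both genotypes on normal food. Under NR it was at 47.04, 40.1, 34.4 and 32.7 CPM in wt clones and at 25.4 and 15.2 CPM in foxoRi clones. It was at 50.7, 41.4, 51.1 and 43.4 CPM in Tsc1 clones and at 32.2, 39.8, 31.8 and 34.7 CPM in Tsc1 foxoRi clones under NR. Here the knockdown clones lay below all others in both genotypes, and as the mean of 4 Prosbeta6 fell by 0.57 on the log2 scale (SE 0.14, adjusted p = 0.0750).

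The other genes that fell were the alpha ring genes Prosalpha3 (−0.53, adjusted p = 0.0917), Prosalpha5 (−0.46, adjusted p = 0.160) and Prosalpha2 (−0.43, adjusted p = 0.160), the protease gene Prosbeta5 (−0.45, adjusted p = 0.165), and the ATPase genes Rpt4 (−0.46, adjusted p = 0.150), Rpt2 (−0.44, adjusted p = 0.140) and Rpt5 (−0.43, adjusted p = 0.140). In yeast the tails of Rpt2 and Rpt5 dock in pockets of the alpha ring and open its gate. The smallest changes were those of Rpt1 (0.00) and Prosalpha1 (−0.03). The fold change was below 0 in all 4 knockdown comparisons for 19 of the 32 genes, 11 core and 8 regulatory, against 8.2% of all tested genes, and no library enters more than 1 of these 4. Prosalpha5 and Rpt4 are among the genes that rose most with the Tsc1 mutation, and both means were taken from the same 29 libraries. With all 31 libraries none of the 8 genes fell, and 7 of the 32 genes were above 0 in place of 1. The number that fell was also 0 without replicate 2 of foxoRi under NR, 2 without replicate 1 of that group or replicate 1 of Tsc1 under NR, 3 without replicate 1 of wt under NR or replicate 2 of Tsc1 on normal food, and 4 without replicate 2 of wt or replicate 3 of Tsc1 foxoRi on normal food.

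**Figure D4:**
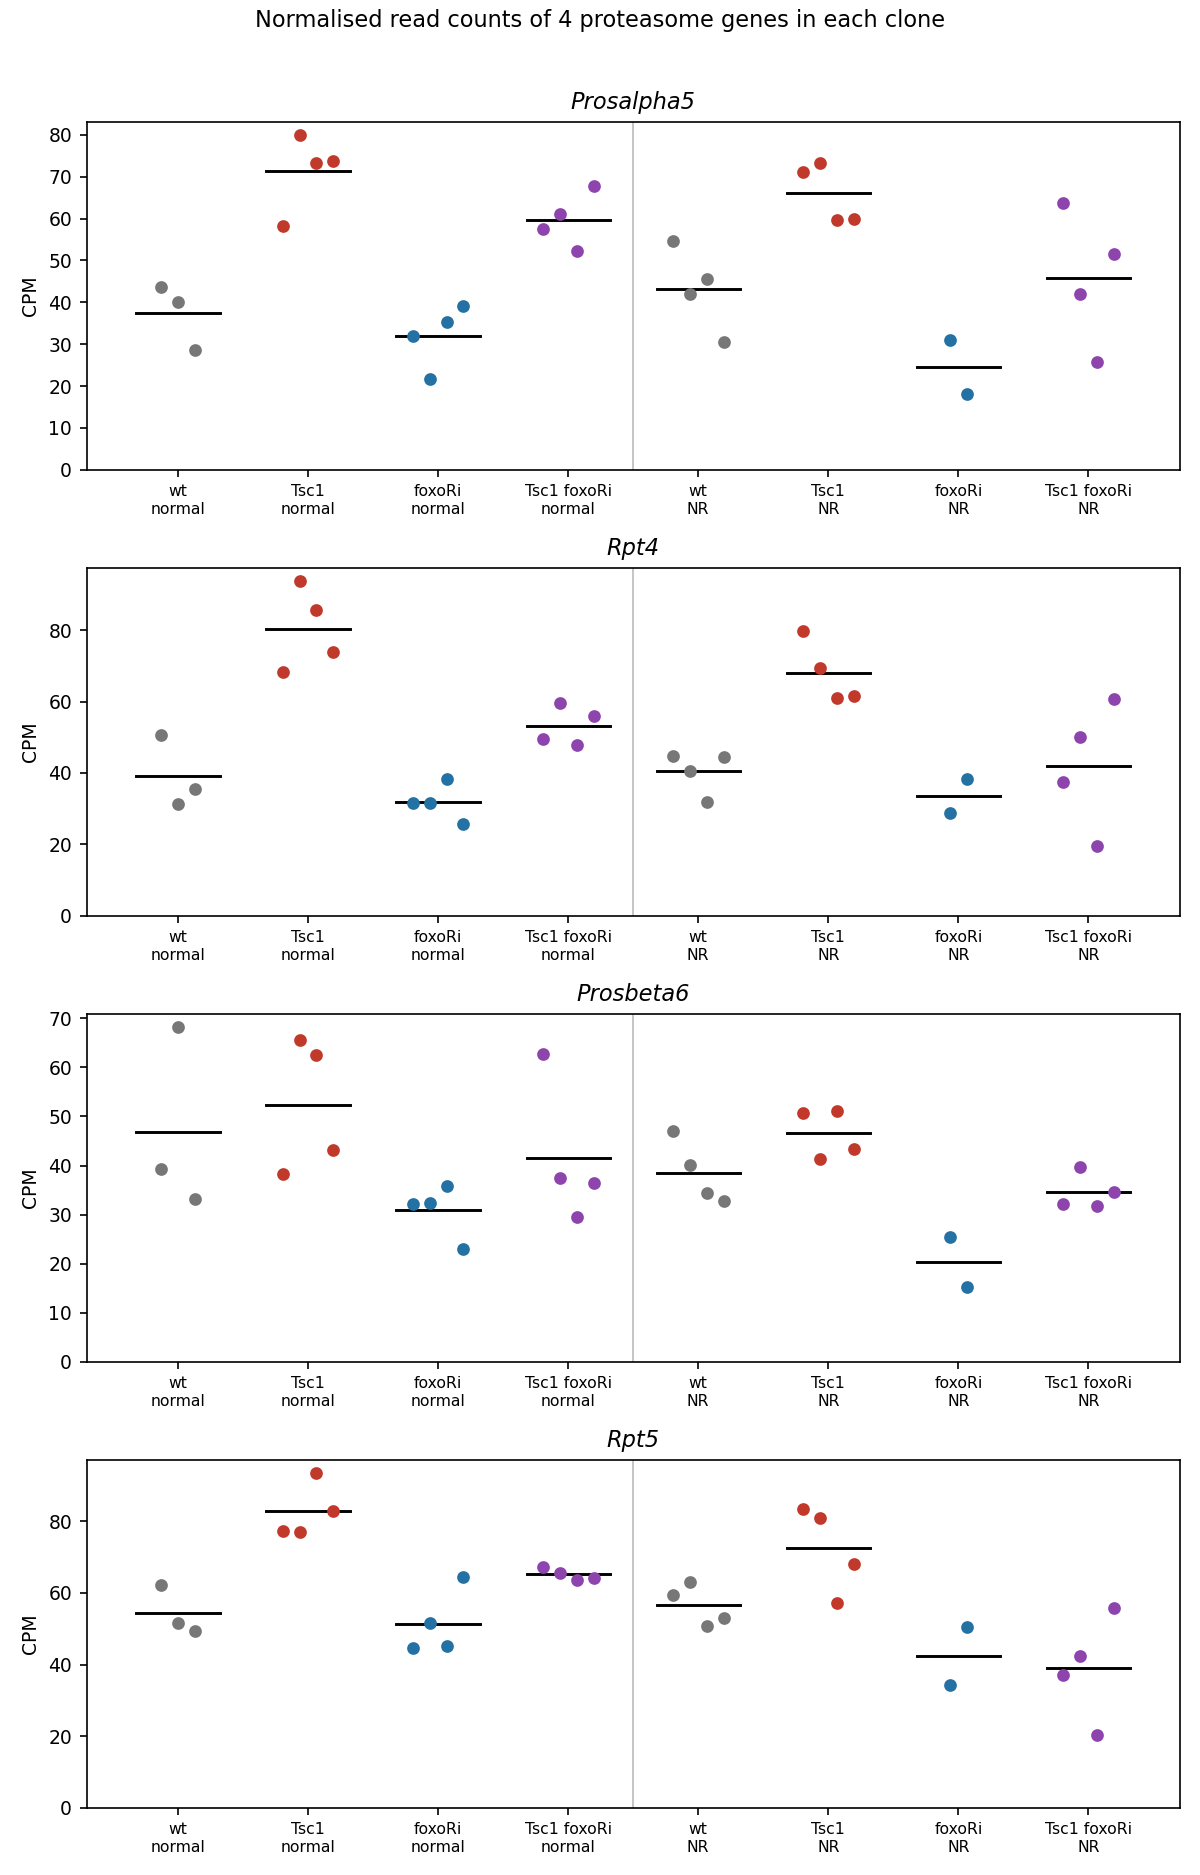
CPM of Prosalpha5, Rpt4, Prosbeta6 and Rpt5 in each of the 29 clones by group. Points are clones and lines are group means. Rpt5 lies at 57.3 CPM or more in the Tsc1 clones under NR and at 55.9 CPM or less in the Tsc1 foxoRi clones under NR.

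In the plot of 4 genes by clone, Tsc1 and Tsc1 foxoRi clones under NR do not overlap for Rpt5 (FBgn0028684, 3R:23752876-23754623, plus strand). Rpt5 was the only canonical gene called in a knockdown comparison, against 0.0518% of all tested genes called down there. Its level was 83.4, 81.0, 57.3 and 68.2 CPM in Tsc1 clones under NR and 37.0, 42.4, 20.4 and 55.9 CPM in Tsc1 foxoRi clones under NR (log2 fold change −0.90, SE 0.23, adjusted p = 0.120). The lowest value was that of the clone with the highest fat body markers, and without that library the change was −0.68 (adjusted p = 0.417). Without it and the clone highest in photoreceptor markers it was −0.72 (adjusted p = 0.532). The call was also lost without any one of replicates 1, 2 and 4 of Tsc1 or replicate 1 of Tsc1 foxoRi, at values of −0.82 to −0.92, and with all 31 libraries (−0.92, adjusted p = 1.0).

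On normal food Rpt5 was at 77.3, 77.2, 93.6 and 83.0 CPM in Tsc1 clones and at 67.2, 65.6, 63.7 and 64.3 CPM in Tsc1 foxoRi clones. The groups did not overlap there either. The test of the difference between the foods gave −0.55 (SE 0.32, adjusted p = 0.980), so an effect of food on the change was not shown. In clones without the mutation, Rpt5 under NR was at 59.5, 63.2, 50.7 and 53.1 CPM in wt clones and at 34.3 and 50.4 CPM in foxoRi clones. The difference between the genotypes under NR was −0.48 (SE 0.35, adjusted p = 0.936). No canonical gene was called in edgeR or had an unadjusted p under 0.05 in either test of a difference.

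Of the 32 canonical genes, Rpt5 included, 30 were below 0 with knockdown in Tsc1 clones under NR, against 45.4% of all tested genes, and 9 were lower at an unadjusted p under 0.05, against 2.65%. In 4 genes (Prosalpha2, Prosbeta6, Rpt4 and Rpt5) the groups did not overlap, against 1.59%. The median was −0.65 for the 6 Rpt ATPases, −0.42 for the core and −0.25 for the regulatory particle, with 0.07 for all tested genes. With 1 library left out at a time, the core median was −0.51 to −0.30 and the regulatory median −0.33 to −0.17. Canonical genes above 0 then numbered 1 to 6. Of the 32 genes, 7, including Rpt4 and Rpt5, had their lowest level in replicate 3 of Tsc1 foxoRi under NR. This clone was the highest in fat body markers, whose part in the medians was not tested. Rpt3 was at −0.69 (adjusted p = 0.404), Rpt4 at −0.69 (adjusted p = 0.497) and Rpt2 at −0.60 (adjusted p = 0.570), while Rpt1 was at 0.19. The Tsc1 clones under NR also enter the comparison with wt clones above.

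The 3 other knockdown comparisons gave no called canonical gene in edgeR or DESeq2. Of all tested genes, edgeR called 0.0739% down in the wt comparison on normal food and 0.0% in each of the other 2. In Tsc1 clones on normal food 29 of 32 were below 0 (43.1% of all tested genes), 2 of them at an unadjusted p under 0.05, against 1.52%, and 4 did not overlap (Prosalpha7, Rpt3, Rpt4 and Rpt5), against 0.983%. Rpt4 had the smallest p there (−0.59, adjusted p = 0.653). In wt clones under NR 30 of 32 were below 0, against 56.5%, and 6 were lower at an unadjusted p under 0.05, all of the core, against 2.29%. There 11 genes did not overlap (8 core and 3 regulatory), against 5.89%, with 2 knockdown clones. Prosbeta6 had the smallest p (−0.92, SE 0.33, adjusted p = 0.895), and the medians were −0.58 for the core and −0.22 for the regulatory particle, with −0.12 for all tested genes. In wt clones on normal food 22 of 32 were below 0, against 47.1%, 2 of them at an unadjusted p under 0.05, against 5.41%, and Prosbeta7 alone did not overlap, against 3.72%. Photoreceptor markers summed to 274 to 1604 CPM in these foxoRi clones and to 58.1 to 213 CPM in the wt clones, without overlap, and their part in these values was not tested.

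**Figure D5:**
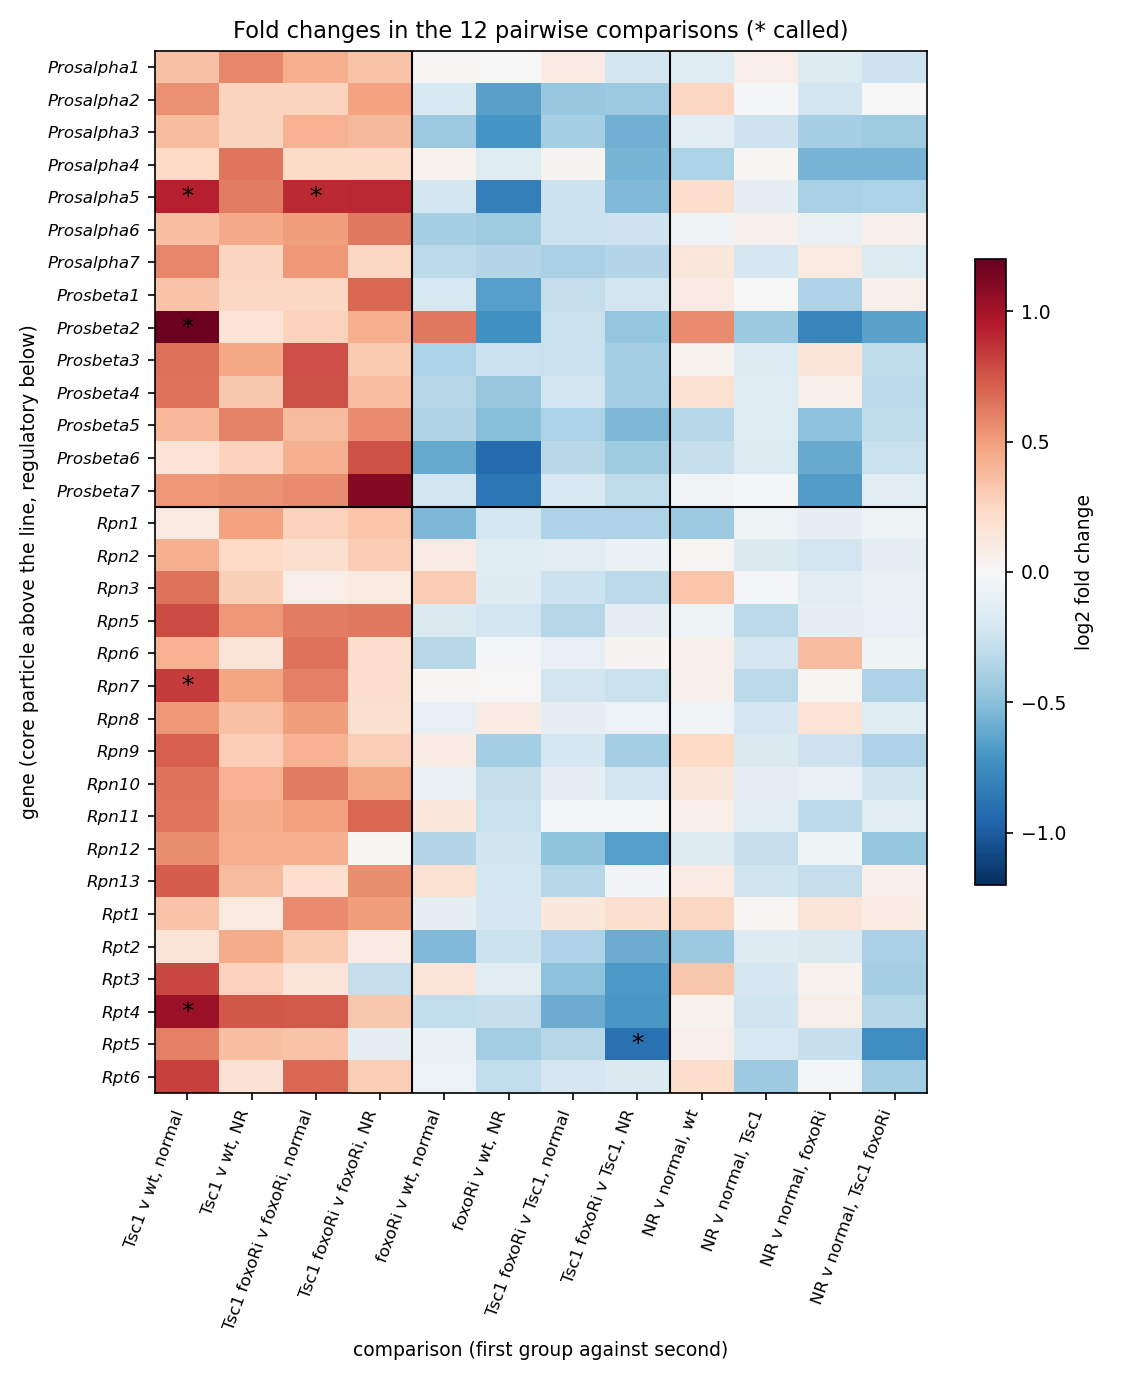
Log2 fold change of each canonical gene in the 12 pairwise comparisons, from −1.2 (blue) to 1.2 (red), with an asterisk at each gene called. The 4 Tsc1 columns on the left are red but for Rpt3 and Rpt5 in the fourth, and the 4 knockdown columns in the middle are mostly blue.

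The next question was the effect of food, with the age that goes with it. As the mean of the 4 comparisons of NR with normal food, 28 of the 32 genes were below 0, against 44.2% of all tested genes, and the medians were −0.14 for the core and −0.12 for the regulatory particle, with 0.05 for all tested genes. No gene was called in edgeR (0.0% of all tested genes called down) or DESeq2, and 7 were lower at an unadjusted p under 0.05 in edgeR, against 2.03%. Prosalpha4 had the smallest p (−0.37, SE 0.12, adjusted p = 0.396). In the map of pairwise changes the food columns are pale and of mixed sign. Genes below 0 numbered 12 of 32 in wt clones (50.7% of all tested genes), 27 in Tsc1 clones (34.3%), 23 in foxoRi clones (57.3%) and 28 in Tsc1 foxoRi clones (40.5%). Rpt5 in Tsc1 foxoRi clones was the only gene that fell in a pairwise food comparison (−0.74, SE 0.23, adjusted p = 0.179), against 0.163% of all tested genes, from the values listed above. Leaving out 1 library at a time gave 0 to 2 canonical genes that fell, with Rpt5 at −0.97 to −0.53. The number was 0 without any one of the 4 Tsc1 foxoRi clones on normal food or replicates 1 or 3 under NR, and with all 31 libraries. In the other food comparisons 0.0% to 0.0148% of all tested genes fell. Below 0 in all 4 food comparisons were 8 of the 32 genes, against 4.18%.

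The paralogs were near the detection limit. Prosalpha1R (2R:7830413-7831771) could not be told apart from Prosalpha1 (2R:7827303-7828678), since the pair had identical counts in 21 of 31 libraries and differed by at most 4.0 counts, so both are uncertain and Prosalpha1R is left out of what follows. The other 15 paralogs summed to 0.477 to 27.2 CPM per clone in the 29 libraries. The 2 libraries left out, scaled with all 31, had sums of 36.9 CPM (wt on normal food) and 0.450 CPM (foxoRi under NR). Under NR the median was 2.56 CPM in wt, 7.16 CPM in Tsc1 and 9.75 CPM in Tsc1 foxoRi clones, and the 2 foxoRi clones were at 1.18 and 1.75 CPM. On normal food the median was 8.41 CPM in wt, 4.43 CPM in Tsc1, 3.98 CPM in foxoRi and 6.40 CPM in Tsc1 foxoRi clones. Of the 15, 10 passed the filter on low counts. Male germline markers (8 of 9 listed genes in the table) summed to 0.249 to 16.2 CPM, with 6 of the 8 at a median of 0.

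Rpt3R (3R:9754735-9756510, minus strand), a paralog of the ATPase gene Rpt3, was the highest of them at a mean of 2.74 CPM and was above 3 counts in 25 of 29 clones. Under NR it was at 0.881, 0.674, 0.191 and 0.139 CPM in wt clones, at 1.07, 4.64, 4.04 and 1.51 CPM in Tsc1 clones, at 0.491 and 0 CPM in foxoRi clones and at 5.42, 8.34, 6.43 and 2.99 CPM in Tsc1 foxoRi clones. Mutant clones lay above non-mutant clones in both pairs under NR. On normal food it was at 2.79, 5.35 and 0 CPM in wt clones, at 2.07, 1.03, 3.996 and 0.809 CPM in Tsc1 clones, at 5.12, 1.51, 2.34 and 0.978 CPM in foxoRi clones and at 5.97, 2.94, 5.71 and 1.90 CPM in Tsc1 foxoRi clones, where all pairs overlapped. The wt clone left out on normal food had 22.5 CPM, scaled with all 31 libraries, above the 29 others. The foxoRi clone left out under NR had 0 CPM. Under NR, genes with a count numbered 12265 to 15173 in Tsc1 clones and 10291 to 13916 in wt clones. They numbered 11351 to 14250 in Tsc1 foxoRi clones and 10702 to 11681 in foxoRi clones. The part of this in the values of Rpt3R was not tested. As the mean of the 4 Tsc1 comparisons Rpt3R was called (log2 fold change 1.83, SE 0.57, adjusted p = 0.0521), against 5.65% of all tested genes called up. Without replicate 2 of foxoRi under NR, the clone at 0, it was 1.56 (adjusted p = 0.249). Without replicate 1 of that group it was 2.90 (adjusted p = 0.0451).

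Prosalpha4T2 and Prosbeta4R2 were called in the other direction as the mean of the Tsc1 comparisons (adjusted p = 0.168 and 0.114) against 1.86% of all tested genes called down, on few reads, 69 reads in 13 clones and 48 reads in 10 clones. The highest clones held 20 reads of Prosalpha4T2 (replicate 2 of wt on normal food) and 13 reads of Prosbeta4R2 (replicate 1 of wt under NR), so their fitted folds are no measure of size. The other paralogs were seen in few clones. Rpn13R, which lies inside rg and CG15465 on the same strand, had 150 reads in 12 clones, and Rpt6R had 151 reads in 12 clones, 74 of them in replicate 4 of Tsc1 on normal food. Rpn13R had the smallest p of all members in foxoRi against wt on normal food (adjusted p = 0.532) and in NR against normal food in foxoRi clones (adjusted p = 0.772). Prosbeta4R1 had 102 reads in 5 clones, 82 of them in replicate 2 of Tsc1 foxoRi under NR. Prosbeta5R2 had 102 reads in 17 clones, Prosbeta2R2 93 in 8, Rpt4R 87 in 5, Prosbeta2R1 62 in 11, Prosbeta5R1 54 in 10, Prosalpha6T 47 in 5, Prosalpha4T1 35 in 7, Rpn12R 35 in 7 and Prosalpha3T 6 in 2.

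Of 23 other genes of the pathway, all tested, 5 rose with the Tsc1 mutation as the mean of 4 comparisons, beside the 10.1% of all tested genes, and none was called in edgeR. Sem1, a small subunit of the lid, rose by 0.63 (SE 0.20, adjusted p = 0.0553). Pomp, which assembles the core particle, rose by 0.37 (adjusted p = 0.0366), and REG, an activator cap of the core particle, by 0.36 (adjusted p = 0.181). Uch-L5, a deubiquitinase bound to the regulatory particle, rose by 0.36 (adjusted p = 0.164), and the shuttle receptor gene Ubqn rose by 0.30 (adjusted p = 0.0575). The median of the 23 genes was 0.18, beside 0.15 for all tested genes.

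With knockdown, as the mean of 4, 1 of the 23 genes fell, beside the 1.06% of all tested genes. This was Usp14, a deubiquitinase of the regulatory particle (−0.51, SE 0.12, adjusted p = 0.0597). At an unadjusted p under 0.05 but not passing the adjusted threshold were REG (−0.46), Uch-L5 (−0.38), Ufd1 (−0.36) and Pomp (−0.24) on the lower side and Pngl (0.37) on the higher side. In single knockdown comparisons the same was true of Usp14 (−0.69), Ufd1 (−0.69) and Rad23 (−0.44) in Tsc1 clones under NR, of Usp14 (−0.80) and PI31 (0.96) in wt clones under NR, and of REG (−0.81) and Ubi-p63E (0.68) in wt clones on normal food. Of all 13524 tested genes, 1459 had an unadjusted p under 0.05 in edgeR in either direction as the mean of 4. In the single comparisons they numbered 849 in Tsc1 clones under NR and 498 in wt clones under NR. On normal food they numbered 1031 in Tsc1 clones and 1244 in wt clones. The gene cnc, which encodes the Nrf homolog known to activate proteasome genes, had a mean level of 78.0 CPM. Its log2 fold change was −0.01 (SE 0.11) for the Tsc1 mutation and 0.13 (SE 0.11) for the knockdown.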

How the data were processed

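Total RNA of 31 single clones was sequenced after low-input library preparation. Per the submitters' processing notes, reads were handled with Trimmomatic, STAR and featureCounts against BDGP6. The authors deposited estimated counts per gene for all libraries in 1 table, without normalization. Versions and the strand setting of the counting were not given in the sources used here, so reads of overlapping genes cannot be told apart, and 16 of the 32 canonical proteasome genes overlap another gene. Of the values, 17.1% were not whole, and they were rounded to whole numbers. The deposited counts carry no molecular identifiers, and whether duplicates were removed was not given in the sources used here, so counting error may understate the error of low counts.

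Groups were taken from the sample labels and ages from the study's methods. The study tested 29 libraries without naming them in the sources used here, so the library with the fewest genes with a count was left out in each of 2 groups, and all 31 served as an alternative. Symbols, coordinates and union exon lengths came from BDGP6.54, which matched 17253 of 17559 genes. Counts were tested in 1 edgeR fit of 8 groups (TMM, filterByExpr, quasi-likelihood test), with Benjamini-Hochberg adjustment over the 13524 genes tested. The 17 comparisons were 12 pairwise, 3 means of 4, and 2 differences of the knockdown effect. Each SE is the absolute log2 fold change divided by the square root of F. Calling needed an adjusted p under 0.2 together with an absolute log2 fold change over 0.8. The rule with adjusted p alone was added after seeing the data. Named were members called in any comparison, the member with the smallest p in each pairwise and mean comparison, the 2 highest and 2 lowest per kb in each particle, paralogs above 3 counts in a library, and genes of a fixed list of 23 pathway genes that were called or under an unadjusted p of 0.05 in a knockdown comparison. Members that passed the adjusted p alone, or failed it as the mean of the Tsc1 comparisons, were named after their values were seen. The members, the lists and the markers were chosen with earlier results of these data known. Tests were checked on simulated data, whose changes were larger than most of those given here, so the check does not reach changes of this size. Alternatives covered the libraries, normalization, filter, test, groups in the fit, gene classes and replicates. Software was R 4.3.3 with edgeR 4.0.16, limma 3.58.1 and DESeq2 1.42.0, and Python 3.11.15 with numpy 2.4.6, pandas 2.3.3 and matplotlib 3.10.9.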

Additional observations from a re-analysis of the deposited data

How the results depend on the processing

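Counts of genes depended most on the libraries in the fit, and the cause was not tested. Counts called include the paralogs. With all 31 libraries, the canonical genes that rose with the Tsc1 mutation as the mean of 4 numbered 8 in place of 28, and those that fell with knockdown 0 in place of 8. Genes called then numbered 2 in place of 4 for the mean of the Tsc1 comparisons, 0 in place of 4 for Tsc1 against wt on normal food, 0 in place of 1 for Tsc1 foxoRi against foxoRi on normal food, 7 in place of 0 for the same under NR, 0 in place of 1 for knockdown in Tsc1 clones under NR, 1 in place of 0 for knockdown in wt clones under NR, and 3 in place of 0 for food in foxoRi clones.

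Leaving out 1 library at a time gave 14 to 30 genes that rose with the Tsc1 mutation and 0 to 10 that fell with knockdown. Genes called ranged from 1 to 4 for the mean of the Tsc1 comparisons, from 0 to 5 for Tsc1 against wt on normal food, from 0 to 1 and from 0 to 2 for Tsc1 foxoRi against foxoRi on normal food and under NR, and from 0 to 2 for knockdown in Tsc1 clones under NR and for food in Tsc1 foxoRi clones. For food in foxoRi clones, Rpn13R ranged from 0.0 (without replicate 2 of foxoRi under NR) to 7.18, in place of 6.15 on the log2 scale.

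Without the 2 clones highest in fat body and photoreceptor markers, an alternative chosen after seeing the data, 5 genes fell with knockdown as the mean of 4. Clones with photoreceptor markers of up to 1163 CPM remained in that fit. Genes called were then 0 for knockdown in Tsc1 clones under NR, 7 for Tsc1 against wt on normal food, and 0 on normal food and 2 under NR for Tsc1 foxoRi against foxoRi. Without a filter on low counts, 3 genes fell with knockdown, 2 were called for Tsc1 against wt on normal food and 0 for Tsc1 foxoRi against foxoRi. Without rRNA, snoRNA and snRNA genes these counts called were 2 and 0, and 0 for knockdown in Tsc1 clones under NR, which was also 0 with only the groups compared. The count of 1 for Tsc1 foxoRi against foxoRi on normal food was 0 with upper-quartile factors or DESeq2's size factors, and these size factors gave 1 for the same under NR. The DESeq2 test gave 4 there and 2 for the mean of the Tsc1 comparisons.

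Of pairs of clones with the same replicate number, 26 of 92 had a correlation over 0.1, against 52 of 274 pairs with different numbers. The median correlations were 0.03 and −0.01. These values do not settle whether the number pairs the clones, so a replicate block served as an alternative only. With the replicate block 29 genes rose with the Tsc1 mutation, 8 fell with knockdown, and 2 were called for the mean of the Tsc1 comparisons. Under the 3 scalings tried, 32 of 32 genes stayed above 0 for that mean.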
